A study of Mus musculus with 10 samples.

Results

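The data described here are 4 RNA sequencing libraries, of 10 in the whole study, that compare mouse cortical cells carrying a short hairpin RNA (shRNA) against Chd8 with cells carrying a control shRNA. They were chosen as the control and knockdown libraries of the first set, which the study names for its second Chd8 shRNA. Plasmids were electroporated in utero into radial glial cells of the cortex at embryonic day 13. GFP-positive cells were then sorted at embryonic day 15. Each library is a separate pool of cortices from 3 to 5 embryos, and both groups have 2 libraries: control 1 and 2, and knockdown 1 and 2. All 4 libraries carry a GFP plasmid and an shRNA, so an effect shared by both shRNA plasmids is not measured here. The sources used here name neither the strain of the mice nor the shRNA sequences. The sorted cells are electroporated radial glia and the cells born from them, so fewer cells of a type and less RNA per cell cannot be told apart in these values.

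CHD8 is a chromatin remodelling enzyme of the CHD (chromodomain helicase DNA-binding) family, and loss-of-function variants of the gene are among the best known in autism. It is known to bind promoters of active genes and has been described as a regulator of beta-catenin, the effector of Wnt signalling, and of cell cycle genes. At midgestation, radial glia divide at the ventricle, give rise to intermediate progenitors, and both produce the excitatory neurons of the cortical layers.

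Values are FPKM as deposited, a fragment level that is corrected for how long a transcript is and how deep a library was mapped. A gene was tested when its mean in the 2 controls was at least 5 FPKM, which 8055 of 23235 genes met. The genes nearest to that threshold were Fbxo34 at a control mean of 5.003 FPKM inside it and Gm10069 at 5.00 outside it, with Gm10069 at 10.5 and 11.3 FPKM in the knockdown libraries. Column totals ranged from 1003315 to 2066798 FPKM. Small RNA genes, whose short length makes a few fragments into a large FPKM, took 46.8% to 68.2% of these totals, with the highest share in control 1. Over the tested genes other than small RNA genes, the log2 values of the controls correlated with r = 0.970 and those of the knockdown libraries with r = 0.970, against 0.907 to 0.937 between groups (across 7996 genes, which are not independent replicates). With the small RNA genes among all 8055 tested genes, r was 0.869 between the controls, 0.936 between the knockdown libraries and 0.823 to 0.888 between groups, so control 2 was then closer to knockdown 2 than to control 1. Depth was estimated from the commonest ratio of low FPKM values to those of control 1, over genes above 0 in both libraries. This takes the commonest ratio to come from genes with equal fragment numbers in both. It put the depth of knockdown 1 and 2 at 0.527 and 0.529 of that of control 1, and the depth of control 2 at 1.22 of it. Transcripts of the Y-linked gene Eif2s3y were 0 and 63.7 FPKM in control 1 and 2 and 0 and 27.2 in knockdown 1 and 2, and those of Ddx3y 0.0472 and 21.3 against 0.120 and 10.5. Xist, made from the inactive X chromosome, was 13.6 and 0.0389 FPKM in the controls and 15.2 and 5.73 in the knockdown libraries. The makeup of the pools by sex thus differed within both groups, and also between control 2, with Xist near 0, and knockdown 2, with both Xist and Y-linked transcripts. Its part in the results was not tested. Nothing in the labels says more about how the replicates of a group differ.

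Chd8 itself was 12.4 and 13.8 FPKM in the controls and 8.55 and 9.23 FPKM in the knockdown libraries. Both knockdown libraries were below both controls, as in 54.0% of all tested genes. The knockdown mean was 68.0% of the control mean. The log2 fold change was -0.51 ± 0.25 (SE, 2 against 2 libraries), with a 95% confidence interval from -1.07 to 0.06, and did not pass the test across all genes (limma adjusted p = 0.163). An exact two-sided permutation test over the 4 libraries gave p = 0.333, the smallest value this design allows. The median tested gene had a log2 fold change of -0.35, and Chd8 was 0.18 lower than control on the log2 scale once the libraries were rescaled to a common median (adjusted p = 0.643), and 0.05 higher after a correction for transcript length and GC content (adjusted p = 0.915). A lower Chd8 level than in the typical gene was therefore not detectable in these libraries. Of the 7 tested genes of the CHD family 0 passed the test (limma), and 1 was lower at an unadjusted p under 0.05. The lowest was Chd1, another remodeller of active genes, at 5.57 and 6.16 FPKM in the controls and 2.63 and 3.09 FPKM in the knockdown libraries (adjusted p = 0.0518).

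**Figure D1:**
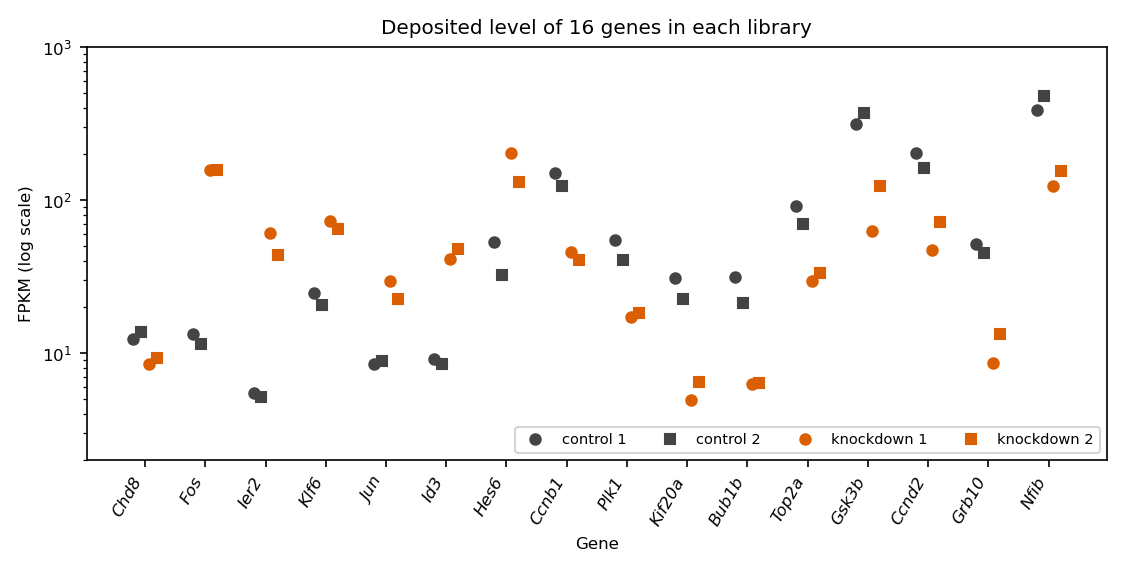
Deposited FPKM (log axis) of 16 genes in each of the 4 libraries: grey for control, orange for knockdown, circles for replicate 1 and squares for replicate 2. In each gene drawn both knockdown libraries lie on the same side of both controls. Of all tested genes 54.0% had both knockdown libraries below both controls, and 14.2% had both above. Fos and Ier2 lie highest above their controls, and Chd8 shows one of the narrowest gaps.

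Across the tested genes 1720 (21.4%) changed, of which 317 rose and 1403 fell in the knockdown libraries, at an adjusted p under 0.05 (limma, Benjamini-Hochberg over 8055 genes). These are 3.94% and 17.4% of the genes tested. The groups did not overlap in 1144 genes (14.2%) that were higher and 4352 (54.0%) that were lower. The split depends on how the libraries are scaled, because the typical gene was itself 0.35 lower on the log2 scale. After median-of-ratios rescaling, which brought the median gene to -0.01, 426 genes (5.29%) rose and 147 (1.82%) fell. Of the 317 genes that rose as deposited, 312 also rose after rescaling, while of the 1403 that fell, 147 also fell after rescaling. Below, a call is the one on the values as deposited, and the count after rescaling stands beside it.

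**Figure D2:**
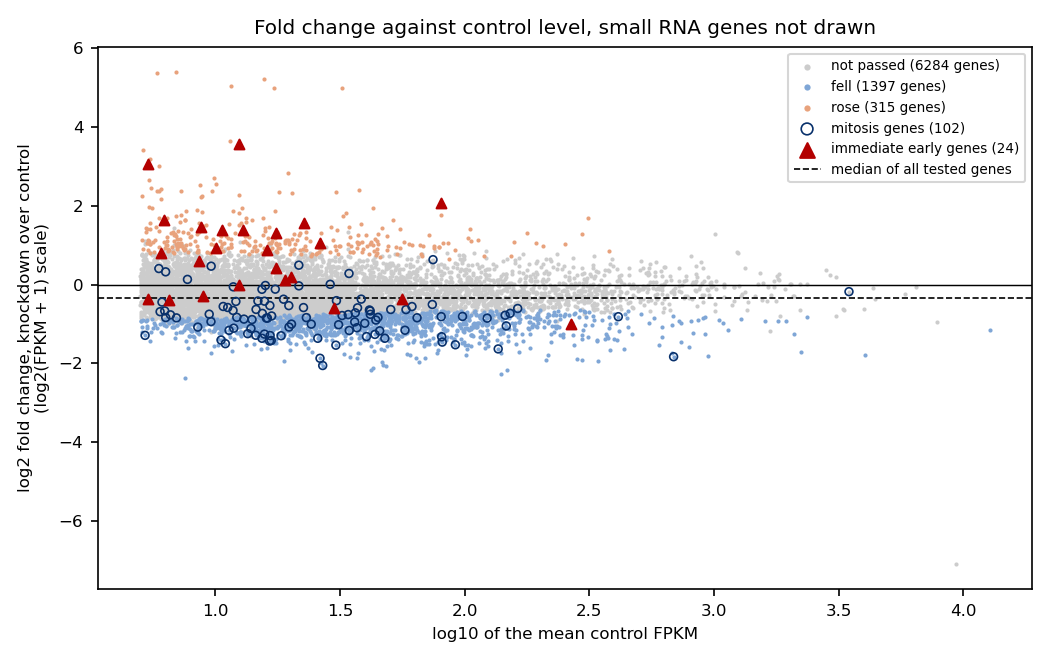
Log2 fold change of knockdown over control against the log10 of the mean control FPKM, 1 point per tested gene, with small RNA genes not drawn; the dashed line is the median of all tested genes, at -0.35. Triangles mark the 24 tested immediate early genes, most of which lie above the line, and open circles mark the 102 tested mitosis genes, most of which lie below it.

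The fold changes followed the length and base composition of the transcripts. The median log2 fold change was -0.05 in the shortest of 4 equal classes of genes by transcript length and -0.55 in the longest. It was -0.49 in the lowest of 4 classes by GC content and -0.08 in the highest. Of the shortest class 8.07% rose and 5.45% fell, and of the longest 0.858% rose and 24.0% fell. Between the 2 controls the medians by length spanned -0.12 to -0.02, and between the 2 knockdown libraries -0.21 to 0.21. With length and GC content taken off each library, 396 genes (5.0%) rose and 288 (3.63%) fell. Of the 312 genes that rose and the 147 that fell both as deposited and after rescaling, 242 and 131 were also called with that correction. Depth, transcript length and GC content moved with the groups, and their part in the results was not tested beyond these fits.

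**Figure D3:**
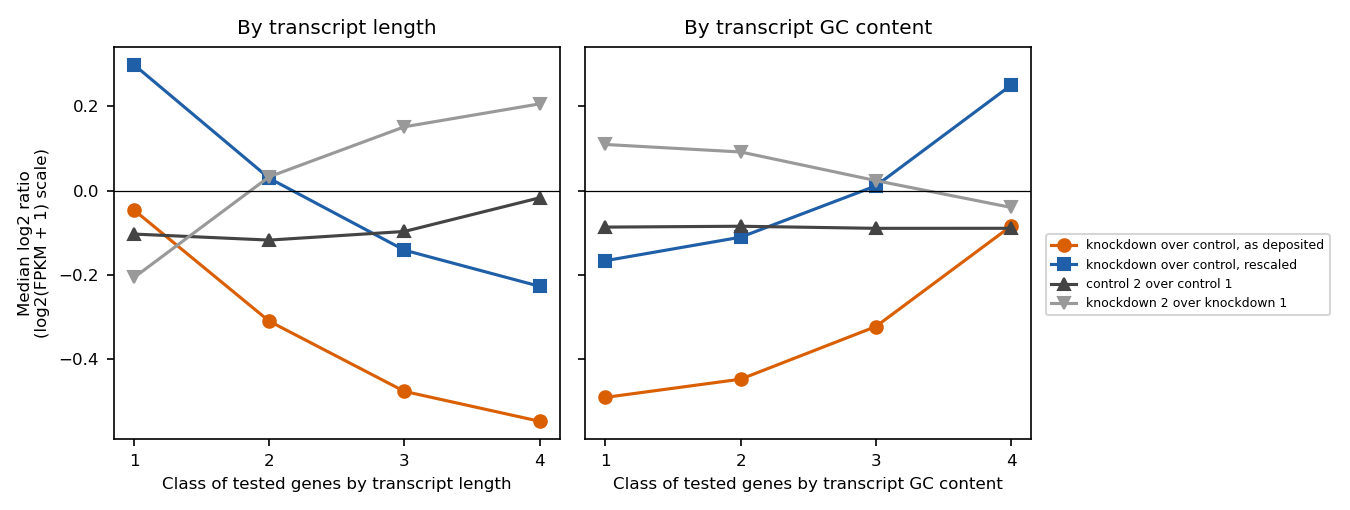
Median log2 ratio (log2(FPKM + 1) scale) in 4 equal classes of the tested genes by transcript length (left) and GC content (right). Knockdown over control falls from -0.05 to -0.55 with length, while control 2 over control 1 stays between -0.12 and -0.02.

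Immediate early genes, which cells transcribe within minutes of a stimulus without new protein synthesis, stood highest among the lists. Of 24 tested members of 61, 12 rose and 1 fell, against 3.94% and 17.4% of all tested genes. Their median log2 fold change was 0.84, against -0.35 over all tested genes. All 12 rose after rescaling too, and 11 rose with the correction for length and GC content. The shares that rose over all genes in those fits were 5.29% and 5.0%. Fos, which encodes a subunit of the AP-1 transcription factor, was 13.4 and 11.4 FPKM in the controls and 157 FPKM in both knockdown libraries. Its mean was 12.7-fold higher, with a log2 fold change of 3.57 ± 0.21 (SE, adjusted p = 1.18e-05). Ier2, a nuclear protein induced by growth factors, was 5.50 and 5.20 FPKM in the controls and 60.7 and 44.0 in the knockdown libraries, 9.79-fold higher (adjusted p = 2.03e-04). Both genes were at least several times above their controls in each knockdown library.

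The other immediate early genes that rose did so by smaller amounts. Jun, the partner of Fos in AP-1, went from 8.53 and 8.92 FPKM to 29.7 and 22.7, a log2 fold change of 1.47 ± 0.25 (SE, adjusted p = 0.0111). Klf6, a zinc finger factor, went from 24.8 and 20.8 FPKM to 73.3 and 64.7 (adjusted p = 0.00561). Ppp1r15a, which encodes a phosphatase subunit that restores translation after stress, went from 20.02 and 15.02 FPKM to 45.9 and 43.1 (adjusted p = 0.0135). In these 3 genes the lowest knockdown library was above the highest control, as in 14.2% of all tested genes. The other members that rose were Cyr61, Nfkbia, Arl4d, Dusp6, Gadd45g, Rhob and Dusp1, named after their values were seen. Among them Dusp1 and Dusp6 encode phosphatases that switch off MAP kinases, and Nfkbia the inhibitor of NF-kappaB. The member that fell was Btg2, an antiproliferative gene that is also a p53 target, at 242 and 293 FPKM in the controls and 106 and 164 in the knockdown libraries (adjusted p = 0.0273, and 0.141 after rescaling). The number of members that rose was 3 without control 1 and 2 without control 2, in fits where the remaining control was assumed to vary like the knockdown libraries. Fos and Ier2 were called in every fit in which they were tested.

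A further 12 immediate early genes were under the filter because of their low control level, and had a knockdown mean of at least 5 FPKM; they were not tested. Egr1, a zinc finger factor induced by MAP kinase signalling, was 2.36 and 0.876 FPKM in the controls and 54.1 and 35.1 in the knockdown libraries. Nr4a1, an orphan nuclear receptor, was 0.737 and 1.36 FPKM in the controls and 22.3 and 20.2 in the knockdown libraries. Fosb was 0.391 and 0.0640 against 13.4 and 14.7 FPKM, and Arc, a synaptic protein gene, 0.440 and 0.360 against 6.56 and 7.08. In Pim3, a kinase gene, the groups overlapped, at 3.43 and 5.82 against 5.08 and 5.12 FPKM. All 12 were selected for a low control and a high knockdown level, so nothing is read from the contrast.

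The knockdown libraries held a low signal over genes that the controls mostly list at 0. Of 1118 olfactory receptor symbols, a family expressed in the nose, 1117 were not tested. Their mean was 0.00357 and 0.00822 FPKM in the controls and 0.679 and 0.566 FPKM in the knockdown libraries. In the controls 98.5% and 93.9% of them were listed at 0, against 44.7% and 50.7% in the knockdown libraries. The highest of them in each library was Olfr613, at 1.81 and 2.04 FPKM in the controls and 92.0 and 57.5 FPKM in the knockdown libraries. This gene was thus not listed at 0 in the controls. The part of this signal in the fold changes of low genes was not tested.

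The other largest rises were mostly little-studied genes, the first 6 of them with similar fold changes. Zfp488, a zinc finger gene, was 6.98 and 6.93 FPKM in the controls and 419.5 and 267 in the knockdown libraries, a log2 fold change of 5.40 ± 0.25 (SE, adjusted p = 3.82e-06). 4932411L15, Olfr856-ps1, A130077B15Rik, 4930470H14Rik and A630089N07Rik had log2 fold changes of 5.36, 5.22, 5.03, 4.99 and 4.98. In each of these 6 genes knockdown 1 was above knockdown 2 and both were far above the controls. Among them 4 formed 2 pairs with shared sequence: Zfp488 and A130077B15Rik align over 924 bases at 92.5% identity on opposite strands, and 4930470H14Rik and A630089N07Rik over 582 bases at 87.3% on opposite strands. Some reads from such copies may fit more than 1 gene, which was not tested, so the values of these 4 are uncertain. Among the 15 largest rises, of which 14 had a transcript to align, 6 shared a stretch of at least 100 bases and 85% identity with another of them, and among the 15 largest falls 0 did. Of the first 6 rises 5 had a transcript to align. Of 40 other tested genes with a stretch like one in those 5, 4 rose and 5 fell, against 3.60% and 17.8% of 7243 tested genes without one.

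Histone and metallothionein genes were also among the rises. The clustered histone genes encode the core histones, are made in S phase and mostly lack a poly(A) tail; 5 of 68 were tested and 3 rose. Hist1h2bc was 14.8 and 8.05 FPKM in the controls and 203 and 110 in the knockdown libraries, 3.65 ± 0.34 (SE) on the log2 scale (adjusted p = 4.55e-04). Their copies are close in sequence, so the values of single histone genes are uncertain. Mt1 and Mt2, metal-binding proteins induced by metals and stress, rose, and Mt3 did not pass the test. Mt2 went from 12.6 and 28.2 FPKM to 87.2 and 110 (adjusted p = 0.00587). These families were picked after the values were seen.

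Genes of mitosis fell together. Of 102 tested genes in the lists of mitotic entry, kinetochore and spindle, joined after the values were seen, 58 fell and 0 rose. Of all tested genes 17.4% fell and 3.94% rose. The median log2 fold change of the 102 was -0.82 against -0.35 over all tested genes. At an unadjusted limma p under 0.05, 1 of the 102 was higher and 75 were lower. After rescaling 12 of the 102 fell and their median was -0.48, and with the correction for length and GC content 22 fell and the median was -0.47. Over all tested genes these fits called 1.82% and 3.63% as lower. Without control 1 or without control 2, 3 of the 102 fell, and without knockdown 1, 35 fell. The group was thus below the typical gene in each of these fits, while the number of members called changed with the scaling and with each control.

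Among genes of mitotic entry, 17 of 27 fell (63.0%), and 3 after rescaling, against 17.4% and 1.82% of all tested genes. Ccnb1, cyclin B1, which activates CDK1 at the start of mitosis, was 149 and 123 FPKM in the controls and 46.0 and 40.4 in the knockdown libraries. The mean was 31.7% of the control mean, with a log2 fold change of -1.63 ± 0.22 (SE, adjusted p = 0.00441, and 0.0213 after rescaling). Plk1, the polo kinase of mitotic entry, was 54.8 and 40.9 against 17.3 and 18.4 FPKM, and Ccnf, a cyclin F-box protein, 18.6 and 14.95 against 5.14 and 6.12 FPKM. Both were also called after rescaling. Aurka, the kinase of centrosome maturation, was 47.3 and 44.0 against 19.4 and 20.0 FPKM, and its adjusted p rose from 0.0137 to 0.0515 after rescaling.

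Among spindle, cytokinesis and condensin genes 27 of 38 fell (71.1%), and 8 after rescaling, against 17.4% and 1.82% of all tested genes. Their median was -1.01. Kif20a, a kinesin of the central spindle, was 31.2 and 22.7 FPKM in the controls and 4.96 and 6.45 in the knockdown libraries, the largest fall of the list (-2.05 ± 0.27, SE, adjusted p = 0.00451). Kpna2, a nuclear import receptor with a role in spindle assembly, was 676 and 700.4 against 157 and 237.5 FPKM, 28.6% of the control mean. Kif22 and Kif2c, kinesins of chromosome movement and of microtubule depolymerisation, and Top2a, the topoisomerase that disentangles sister chromatids, fell as well, and all 3 were called after rescaling. Of the kinetochore and checkpoint genes 14 of 37 fell (37.8%), and 1 after rescaling. That gene was Bub1b, the checkpoint kinase-like protein BUBR1, at 31.2 and 21.4 FPKM in the controls and 6.29 and 6.41 in the knockdown libraries (adjusted p = 0.00591, and 0.0206 after rescaling).

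Genes of DNA replication, DNA repair and G1 were lower too. In these lists 36.8% to 47.1% of tested members fell, against 17.4% of all tested genes (1.82% after rescaling). In DNA replication 19 of 50 tested members fell and 0 after rescaling, with a median of -0.68; after rescaling 1 rose. Fen1, the flap endonuclease of lagging-strand synthesis, was 103 and 101 FPKM in the controls and 43.8 and 50.1 in the knockdown libraries (adjusted p = 0.0137, and 0.0591 after rescaling). In DNA repair 7 of 19 fell and 0 after rescaling. Among G1 cyclins, kinases and the E2F and RB proteins 8 of 17 fell and 1 rose, and after rescaling 2 fell and 1 rose. Their median was -0.85 (-0.54 after rescaling), below the medians of the mitotic entry list, -0.78, and of the kinetochore list, -0.64. Ccnd2, cyclin D2, which drives G1 progression in cortical progenitors, was 202 and 161 against 47.3 and 71.7 FPKM (adjusted p = 0.00765, and 0.0268 after rescaling). Myc, the growth-promoting factor, named after its values were seen, rose from 23.8 and 20.0 FPKM to 47.6 and 34.9, and its partner Max fell from 24.1 and 15.8 FPKM to 6.67 and 6.11. Of the CDK inhibitors and p53 targets 2 of 14 fell (14.3%) and 0 after rescaling. Their median was -0.21, above the -0.35 of all tested genes.

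**Figure D4:**
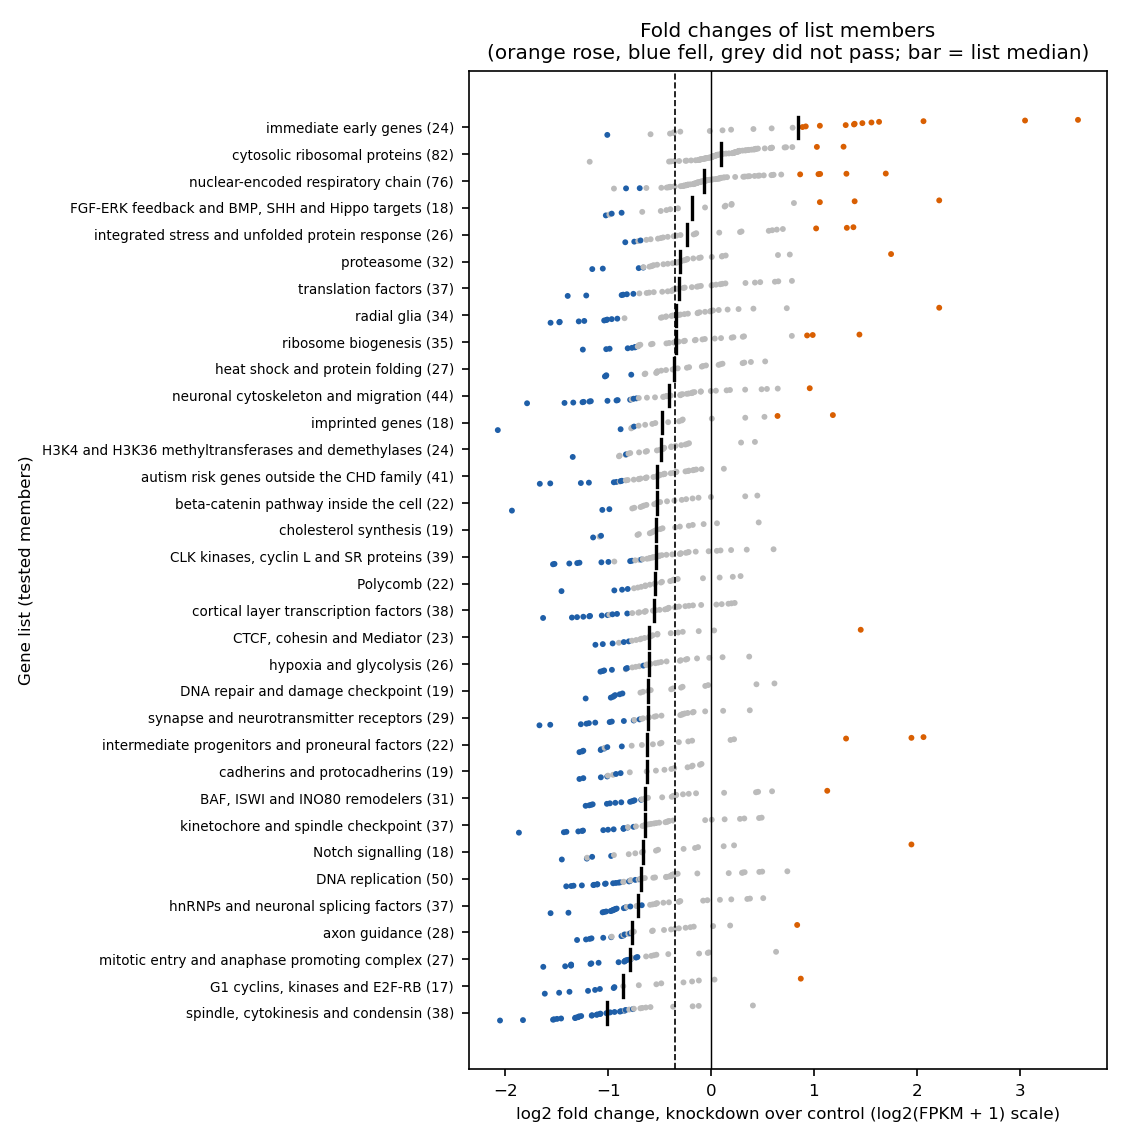
Log2 fold change of each tested member of the lists with at least 15 tested members, 1 point per gene, with a bar at each list's median; the dashed line is the median of all tested genes, at -0.35. Immediate early genes have the highest median, 0.84, and spindle, cytokinesis and condensin genes the lowest, -1.01.

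Promoters of these genes are shown because both groups are known for short upstream motifs: TGACG, the core of the cyclic AMP response element that CREB binds, in immediate early genes, and CCAAT, bound by NF-Y, in mitotic genes. The sequences are the 150 bases before the RefSeq transcription start (GRCm38.p6), on the gene's strand, with TGACG (or its reverse complement) in capitals in the first 2 and CCAAT (or its reverse complement) in the last 2.
Fos: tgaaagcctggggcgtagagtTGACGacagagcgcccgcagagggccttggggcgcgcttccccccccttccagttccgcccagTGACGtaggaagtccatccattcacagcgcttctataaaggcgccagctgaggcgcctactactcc
Dusp1: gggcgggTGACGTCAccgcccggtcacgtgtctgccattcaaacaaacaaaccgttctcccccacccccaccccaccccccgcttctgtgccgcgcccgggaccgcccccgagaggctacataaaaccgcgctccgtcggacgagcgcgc
Ccnb1: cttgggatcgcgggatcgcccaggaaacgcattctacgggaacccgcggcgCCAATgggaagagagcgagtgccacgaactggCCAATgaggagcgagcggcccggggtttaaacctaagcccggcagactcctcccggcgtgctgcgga
Top2a: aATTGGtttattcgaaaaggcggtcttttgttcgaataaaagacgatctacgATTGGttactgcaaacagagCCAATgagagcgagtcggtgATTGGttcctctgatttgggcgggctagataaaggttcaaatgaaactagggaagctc
The Fos stretch is chr12:85473740-85473889 on the plus strand. The Dusp1 stretch is chr17:26508473-26508622 on the minus strand. The Ccnb1 stretch is chr13:100786487-100786636 on the minus strand. The Top2a stretch is chr11:99024190-99024339 on the minus strand.

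These 4 were picked because they hold the motif. In the 250 bases before the start, searched on both strands, TGACG was found in 4 of 10 immediate early genes that rose and had a RefSeq promoter (40.0%), against 34.2% of 5799 tested genes with one. The share is near that of all tested genes. CCAAT was found in 35 of 49 mitosis genes that fell (71.4%) against 42.7% of all, and TTTGAA or TTTAAA, the letters of the cell cycle homology region, in 26 of 49 (53.1%) against 20.9%. Among all 81 tested mitosis genes with a promoter the shares were 69.1% and 49.4%, so the members that fell held these letters about as often as their list. A match is a description of the sequence only.

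In Wnt signalling, which the protein has been linked to, 7 of 38 tested members fell (18.4%) and 0 rose, a share near the 17.4% of all tested genes that fell. Of 6 tested ligands and secreted regulators 1 fell, of 10 receptors 3 fell, and of 22 genes of the beta-catenin pathway inside the cell 3 fell; after rescaling the counts were 0, 0 and 1. The gene called in both was Gsk3b, the kinase that marks beta-catenin for destruction, at 313 and 370 FPKM in the controls and 63.2 and 123 in the knockdown libraries. Its mean was 27.3% of the control mean (log2 fold change -1.94 ± 0.30, SE, adjusted p = 0.00739, and 0.0251 after rescaling). Sfrp1, a secreted Wnt antagonist, was 112 and 172 against 49.0 and 71.1 FPKM (adjusted p = 0.0201, and 0.0904 after rescaling). Ctnnb1, beta-catenin itself, was 145 and 205 against 96.7 and 118 FPKM and did not pass the test (adjusted p = 0.0647). Fzd3, a Wnt receptor of axon growth, and Apc, the scaffold of the destruction complex, fell as deposited and did not pass after rescaling.

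The progenitor lists held members that fell and members that rose, beside 17.4% and 3.94% of all tested genes (1.82% and 5.29% after rescaling). In the Notch pathway, which keeps radial glia undifferentiated, 4 of 18 members fell (22.2%) and 1 rose (5.56%), shares near those of all tested genes. After rescaling 1 fell and 1 rose. Hes6, which counteracts HES1 and promotes neuronal differentiation, rose from 53.4 and 32.3 FPKM to 204 and 131 (1.95 ± 0.30 on the log2 scale, SE, adjusted p = 0.00682). Maml2, a Notch coactivator, fell from 21.1 and 24.2 FPKM to 6.87 and 8.48, and it and Hes6 were also called after rescaling. Of 34 tested radial glia genes 10 fell (29.4%) and 1 rose (2.94%), and after rescaling 1 fell and 1 rose. Their median was -0.34, against -0.35 over all tested genes, and 17 lay above the median of all genes and 17 below it. Id3, an inhibitor of proneural factors induced by BMP, went from 9.10 and 8.46 FPKM to 41.2 and 48.1, 5.08-fold higher (adjusted p = 0.00109). The radial glia gene that fell after rescaling was Prom1, a membrane protein of progenitors, at 36.5 and 27.96 FPKM in the controls and 8.33 and 14.1 in the knockdown libraries (adjusted p = 0.0497 after rescaling). Pax6, a defining radial glia factor, was 56.6 and 60.4 against 22.1 and 36.2 FPKM (adjusted p = 0.0290, and 0.132 after rescaling).

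Of 22 intermediate progenitor and proneural genes 8 fell (36.4%) and 3 rose (13.6%), against 17.4% and 3.94% of all tested genes. After rescaling 1 fell and 3 rose. Eomes, the factor that defines intermediate progenitors, was 35.6 and 60.5 FPKM in the controls and 19.6 and 18.2 in the knockdown libraries (adjusted p = 0.0198, and 0.0870 after rescaling). Besides Hes6 the members that rose were Gadd45g, also an immediate early gene, and Igsf8, both named after their values were seen. Gadd45g was 110 and 50.8 against 582 and 172 FPKM, so its replicates differed widely.

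In the lists of young neuron genes 28.9% to 37.9% of tested members fell, against 17.4% of all tested genes (1.82% after rescaling). Their medians were -0.55 (layer factors), -0.41 (cytoskeleton and migration), -0.77 (axon guidance) and -0.61 (synapse and receptors), against -0.35 over all tested genes. With the correction for length and GC content the medians were -0.13, -0.18, -0.23 and -0.20, against -0.05 over all tested genes. In that fit 3, 6, 0 and 2 members fell, against 3.63% of all tested genes. Of 38 cortical layer transcription factors 11 fell and 0 rose, and 2 fell after rescaling. Those 2 were Nfib, a factor of deep-layer neurons and glia, at 390 and 479 against 124 and 155 FPKM, and Bcl11b, of subcerebral projection neurons, at 41.9 and 52.0 against 19.2 and 17.5 FPKM. Of 44 neuronal cytoskeleton and migration genes 13 fell and 1 rose, and after rescaling 2 fell, Rnd3 and Dpysl2, and 1 rose. Dpysl2, which promotes axon growth by binding tubulin, was 4118 and 3917 FPKM in the controls and 995 and 1356 in the knockdown libraries. Dcx, the microtubule protein of migrating neurons, was 89.3 and 81.1 against 25.5 and 42.6 FPKM (adjusted p = 0.0155, and 0.0562 after rescaling). Of 28 axon guidance genes 10 fell and 1 rose, and after rescaling 0 fell and 1 rose. Of 29 synapse and receptor genes 11 fell and 2 after rescaling. Syt4, a synaptotagmin, was 415 and 348 FPKM in the controls and 103 and 138 in the knockdown libraries (adjusted p = 0.00517, and 0.0229 after rescaling).

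Among 41 tested autism risk genes outside the CHD family 8 fell (19.5%) and 0 rose, a share near the 17.4% of all tested genes that fell. After rescaling 2 of them fell. Their median was -0.53 against -0.35 over all tested genes, and -0.04 against -0.05 with the correction for length and GC content. Wdfy3, an autophagy adaptor, was 23.8 and 15.9 against 3.83 and 7.64 FPKM (adjusted p = 0.0162, and 0.0480 after rescaling). Both knockdown libraries were below both controls, as in 54.0% of all tested genes. Among 31 tested BAF, ISWI and INO80 remodellers 13 fell and 1 rose, Actl6b, the neuronal BAF subunit, which went from 20.5 and 21.9 FPKM to 60.2 and 37.5. After rescaling 0 of these fell and Actl6b rose.

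The 15 largest falls lay between -2.38 and -1.91 on the log2 scale, far smaller in size than the largest rises. Cdv3, a gene with little described function, was 141 and 137 FPKM in the controls and 21.8 and 36.8 in the knockdown libraries, 21.0% of the control mean (adjusted p = 0.00208). Grb10, an imprinted adaptor that restrains growth factor signalling, was 51.3 and 45.2 against 8.57 and 13.3 FPKM (adjusted p = 0.00353, and 0.0125 after rescaling). Eif3j, a subunit of the translation initiation factor eIF3, fell from 8.79 and 6.35 FPKM to 1.46 and 0.0794. The others were Tspan12, Tmem170b, Rab8b, Nufip2, Cyp39a1, Glcci1, Usp37, Opcml, Ado and Paip1, with Kif20a and Gsk3b. All but Tspan12 (adjusted p = 0.0538) were called after rescaling.

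RNA processing genes were called mostly as lower, as were all tested genes, of which 17.4% fell and 3.94% rose. Of 39 CLK, cyclin L and SR protein genes 10 fell and 0 rose, and 4 fell after rescaling: Luc7l3, Cwc22, Arglu1 and Rbm5. Luc7l3, a U1-associated protein, was 256 and 291 against 91.8 and 95.1 FPKM (adjusted p = 0.00451). Of 37 hnRNP and neuronal splicing factor genes 17 fell, and 1 after rescaling, Elavl2, a neuronal RNA-binding protein. Of 13 tested nuclear long non-coding RNAs and snoRNA host genes 3 rose and 0 fell, and the same counts held after rescaling. Meg3, an imprinted long non-coding RNA, went from 21.0 and 25.2 FPKM to 50.5 and 56.8 (1.18 ± 0.23, SE, adjusted p = 0.0140).

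Short, abundant housekeeping transcripts stood above the typical gene. The 82 ribosomal protein genes had a median log2 fold change of 0.10, with 78 above the median of all genes. Of them 2 rose (2.44%), Rps2 and Rps10. Their summed level was 76630 and 68990 FPKM in the controls and 92080 and 65720 in the knockdown libraries. The 76 nuclear-encoded respiratory chain genes had a median of -0.07, and 5 rose (6.58%) and 2 fell (2.63%). They summed to 29460 and 27700 against 32590 and 25900 FPKM, so the groups overlapped in both sums. Of all tested genes 3.94% rose and 17.4% fell (5.29% and 1.82% after rescaling). Cox6a1, a subunit of cytochrome c oxidase, was 397 and 225 against 1268 and 746 FPKM (adjusted p = 0.0153). With the correction for length and GC content the medians were 0.12 and 0.02, against -0.05 over all tested genes. After rescaling 2 ribosomal protein genes and 6 respiratory chain genes rose and 0 of either list fell. Among 26 integrated stress and unfolded protein response genes 3 rose, Slc3a2, Herpud1 and Sdf2l1, and 3 fell, and after rescaling 5 rose and 0 fell. Slc3a2, an amino acid transporter subunit, went from 33.1 and 28.6 FPKM to 81.7 and 82.2 (adjusted p = 0.00731). Of 27 heat shock genes 4 fell (14.8%) and 0 rose, and of 26 hypoxia and glycolysis genes 7 fell (26.9%) and 0 rose. After rescaling 0 of either list was called.

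Other lists had smaller numbers of members called, and between 0 and 31.6% of a list's tested members fell, against 17.4% of all tested genes. Of 22 tested Polycomb genes, which encode the complexes that silence developmental genes, 4 fell, and of 24 H3K4 and H3K36 methyltransferase and demethylase genes 2 fell; after rescaling 0 of either list was called. Of 23 CTCF, cohesin and Mediator genes 5 fell and 1 rose, Med1, a Mediator subunit, from 28.4 and 29.6 FPKM to 110 and 60.2 (adjusted p = 0.0152); after rescaling 1 rose and 0 fell. Of 19 cadherins and protocadherins 6 fell, of 19 cholesterol synthesis genes 2 fell, of 37 translation factors 6 fell and of 8 voltage-gated ion channels 1 fell, and 0 of these 4 lists' members were called after rescaling. Of 35 ribosome biogenesis genes 7 fell and 3 rose, and of 32 proteasome genes 4 fell and 1 rose, Psmd3, a regulatory subunit, from 7.21 and 6.68 FPKM to 29.1 and 22.7 (adjusted p = 0.00591). After rescaling 4 and 3 members of these lists rose and 0 fell. Of 18 imprinted genes 3 fell and 2 rose, and of 18 FGF, BMP, SHH and Hippo target genes 3 fell and 3 rose, Id3, Cyr61 and Dusp6. After rescaling 1 imprinted gene fell and 2 rose, and 3 of the target genes rose and 0 fell. Of 6 tested interferon response genes 0 passed (limma), with 1 higher and 1 lower at an unadjusted p under 0.05. After rescaling 1 rose, Irf3, an interferon regulatory factor, at 12.6 and 9.94 against 20.9 and 19.01 FPKM (limma adjusted p = 0.0336).

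Markers of other cell types were low. Of the 22 interneuron markers, 5 were tested and 0 passed; their summed level was 96.3 and 62.9 FPKM in the controls and 56.0 and 101 in the knockdown libraries, so the groups overlapped. The 14 erythroid genes summed to 30.6 and 37.0 FPKM in the controls and to 8.50 and 84.4 in the knockdown libraries. The 16 microglia and macrophage genes summed to 5.93 and 11.5 against 23.9 and 47.4 FPKM, and the 12 choroid plexus and hem genes to 0.928 and 3.59 against 11.1 and 13 FPKM, none of them tested. The 18 endothelium and pericyte genes summed to 26.3 and 17.5 against 27.9 and 38.0 FPKM, and the 14 meninges and mesenchyme genes to 7.03 and 6.59 against 8.82 and 11.6 FPKM. These last 4 sums were higher in both knockdown libraries than in both controls, and their part in the results was not tested. Nearly all their members were under the filter, where the knockdown libraries also held signal over olfactory receptor symbols. That signal averaged 0.679 and 0.566 FPKM per symbol, against 0.00357 and 0.00822 in the controls, and its part in these sums was not tested.

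**Figure D5:**
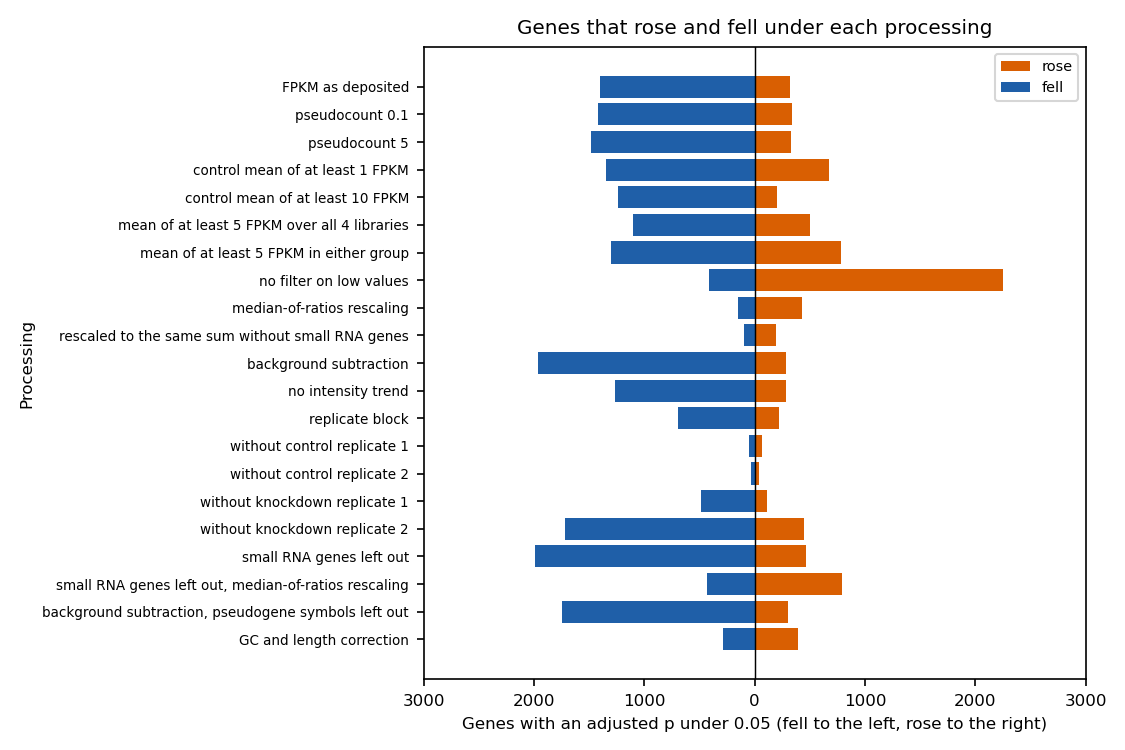
Number of tested genes with an adjusted p under 0.05 that fell (left of 0) and rose (right of 0) under each processing. As deposited 1403 fell and 317 rose; median-of-ratios rescaling gave 147 and 426, and leaving out either control left at most 118 calls in all.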

How the data were processed

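Total RNA of sorted cells was made into libraries with a Clontech low-input kit, per the labels' protocols. The submitters' processing notes name TopHat2, Bowtie, Cufflinks 2.0.0, Cuffdiff and mouse build mm9. The authors deposited FPKM values, 1 column per library, for 23235 gene symbols; the sources used here name no annotation or strand setting. Fragment counts were not used, so no counting interval is given.

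Values were taken as log2(FPKM + 1), a scale that understates the change of low genes. Genes with a control mean of at least 5 FPKM were fitted with limma 3.58.1 in R 4.3.3 (intensity trend, two-sided, 2 residual degrees of freedom), with Benjamini-Hochberg adjustment over 8055 genes and calls at an adjusted p under 0.05. The fit was tested on simulated data. Transcript length and GC content came from GENCODE vM21 (99.1% of tested genes other than small RNA genes matched). Transcripts were aligned with BLAST 2.17.0 (at least 100 bases and 85% identity), and promoters came from RefSeq GRCm38.p6.

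The libraries, the 49 gene lists and the tests were chosen with earlier results of these data known. Named genes are Chd8, the 15 largest rises and 15 largest falls among called genes whose groups do not overlap (small RNA genes left out), the 5 tested genes of lowest p in each list, and immediate early genes under the filter with a knockdown mean of at least 5 FPKM; others are said to be chosen after their values were seen. The joined mitosis list, the alignment limits and the motifs were also set after values were seen. Besides the fit described, 16 other settings were run and 8 more were added after seeing the data. In the background subtraction every Olfr symbol was used (1118), and an added version left out the pseudogene symbols (1096) because 2 genes were seen to raise the mean. The labels do not say whether libraries of the same number were prepared together, and the main fit used no pairing. Same-numbered deviations from the group means correlated at -0.04 over 8055 genes, a value that cannot show whether the libraries were paired. Eif2s3y was 0 FPKM in control 1 and knockdown 1, and 63.7 and 27.2 FPKM in control 2 and knockdown 2. A gene that the naming rule picks is not reported here.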

Additional observations from a re-analysis of the deposited data

Results flagged for a closer look

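Signal was present in knockdown libraries in genes that the tests did not use. The 1117 untested olfactory receptor symbols averaged 0.679 FPKM in knockdown 1 and 0.566 FPKM in knockdown 2, above 0.00357 and 0.00822 FPKM in the controls. Over all 1118 symbols the means were 1.39 and 0.993 FPKM in the knockdown libraries. Besides small RNA genes, 771 genes had a control mean under 5 FPKM and a knockdown mean of at least 5 FPKM. Among them Egr1 had a knockdown mean of 44.6 FPKM and Nr4a1 one of 21.2 FPKM. These genes were under the filter, so no test was made, and the cause was not tested. With 2 libraries a group, single libraries were not screened for outlying values.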

How the results depend on the processing

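As deposited 1720 genes changed, 317 up and 1403 down. The number changed, up and down was 2668, 2251 and 417 with no filter, 573, 426 and 147 after median-of-ratios rescaling, 291, 193 and 98 after rescaling to the same sum without small RNA genes, and 684, 396 and 288 with the GC and length correction. With a replicate block it was 912, 222 and 690, and 33 mitosis genes fell. Whether the replicate numbers pair the libraries is not known. Genes that rose numbered 671 and 207 at control means of at least 1 and 10 FPKM, and 501 and 787 at a mean of at least 5 FPKM over all libraries or in either group. Leaving out small RNA genes gave 2460 calls, and with median-of-ratios rescaling 795 up and 431 down, with 29 mitosis genes lower. Background subtraction gave 2249 calls with every olfactory symbol and 2050 without pseudogene symbols, against 1720. Leaving out 1 library gave 74 to 2160 changed genes (118 without control 1, 74 without control 2, 603 without knockdown 1, 2160 without knockdown 2), 37 to 446 up and 37 to 1714 down, 2 to 12 immediate early genes up and 3 to 49 mitosis genes down. With median-of-ratios rescaling as well, leaving out control 1, control 2, knockdown 1 and knockdown 2 gave 196, 81, 103 and 1130 changed genes, 167, 55, 77 and 723 up and 29, 26, 26 and 407 down; the immediate early genes up were 4 to 12 (7 without knockdown 1), and the mitosis genes down 1, 1, 4 and 15. Immediate early genes that rose were 6 with no filter. Mitosis genes that fell were 26 with no filter, 12 after median-of-ratios rescaling, 9 after rescaling to the same sum and 22 with the GC and length correction. The Chd8 log2 fold change was -0.58 to -0.43 with a library left out (-0.27 to -0.10 with rescaling as well) and turned to 0.0485 with the GC and length correction (adjusted p = 0.915; 0.0868 to 0.915 over all alternatives). Of 183 named genes called as deposited, 78 kept their call after median-of-ratios rescaling, 31 without control 1 and 23 without control 2, and 0 changed direction in any fit; beyond the smaller number of libraries, the cause was not tested. Where a gene's groups do not overlap, leaving out a library or changing the filter or pseudocount cannot reverse its direction. The 0 was fixed in advance for such genes in those fits. Fits with 1 library in a group assume that it varies like the other group.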
